A study of Mus musculus with 6 samples.

Results

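The genes described here are 9 receptors that guide leukocytes along chemical gradients: the chemokine receptors Ccr1, Ccr7, Cxcr3, Cxcr4 and Cx3cr1, the formyl peptide receptors Fpr1 and Fpr2, the complement C5a receptor C5ar1 and the sphingosine 1-phosphate receptor S1pr1. They were chosen by name, as the probes whose gene name on the array equals a listed receptor. This gave 10 probes for the 9 genes among 27726 probes of 22127 genes that passed the filter on dim signals, and all 10 passed it. The cells were M-MDSCs, the monocytic kind of myeloid-derived suppressor cell, an immature type able to suppress T cells, sorted by flow cytometry from lung or bone marrow of C57BL/6 mice. Treated mice received azacytidine, which inhibits DNA methyltransferases, plus entinostat, which inhibits class I histone deacetylases, and mock mice received vehicle. There were 3 dual-colour arrays per tissue, each with 1 treated RNA in Cy5 and 1 mock RNA in Cy3 from the same tissue. Each treated RNA pooled 3 to 6 mice, and each mock RNA was taken from 1 or 2 mice, whose age the labels give as 6 to 8 weeks. The age of the treated mice is not given in the sources used here. No array exchanged the dyes, so treatment and dye cannot be told apart, and the tissues were hybridised on separate slides and scanned separately, so slide and tissue cannot be told apart.

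Chemoattractant receptors span the membrane and couple to G proteins that turn a gradient of ligand into directed movement. Chemokine receptors sort cells between marrow, blood, lymph node and tissue: CXCR4 holds myeloid cells in the marrow, S1P receptors draw cells out into blood, and CCR7 leads cells towards lymph nodes. Formyl peptide and C5a receptors sense bacterial products, damaged mitochondria and complement activation, and they are characteristic of neutrophils, monocytes and macrophages. CX3CR1, the fractalkine receptor, separates patrolling from classical monocytes, being higher on the patrolling ones. Azacytidine blocks the enzymes that methylate cytosine in CG pairs, so the CG pairs before the transcription start are shown for 4 of the genes. Methylation itself was not measured.

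The share of spots well above background was 55.1% to 69.5% in the treated channels and 49.9% to 62.8% in the mock channels, with no saturated spot. Precision is limited by the 3 arrays per tissue. Of 9 measured markers of M-MDSCs and classical monocytes, all 9 were well above background on every array of every group. Their summed level ran from 182009 to 223133 in treated lung, against 165942 to 203485 in mock lung, and from 176113 to 207589 in treated marrow, against 176906 to 189220 in mock marrow. Ly6c2, which helps to define these cells, was not measured here. Markers of other cell types were present as well, in both tissues. All 10 macrophage markers were well above background on every lung array, and their summed level was 106040 to 159949 in treated lung and 33581 to 42253 in mock lung. The summed level of 9 neutrophil markers was 63618 to 153227 in treated lung and 20547 to 56284 in mock lung, that of 8 endothelial markers was 24478 to 31894 and 11036 to 14957, and that of 8 lung epithelial markers was 68064 to 104428 and 18114 to 33819. In marrow the summed macrophage level was 3814 to 4864 in treated and 3732 to 3974 in mock cells, and Mertk, a macrophage marker, was not well above background on any marrow array. The neutrophil markers summed to 314111 to 367957 in treated marrow and 327654 to 341089 in mock marrow, above their lung levels. The summed level of 8 stem and progenitor markers was 121983 to 152283 in treated marrow and 87536 to 110091 in mock marrow. In lung that sum was 14811 to 16793 in treated and 7153 to 8623 in mock cells.

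In treated lung, 5 of the 9 receptors rose and 2 fell. Fpr1, C5ar1 and S1pr1 rose most, with 3.05-fold, 2.98-fold and 2.42-fold higher means, followed by Fpr2 at 1.90-fold and Ccr1 at 1.60-fold, while Cxcr4 and Ccr7 fell by 0.47 and by 0.43 on the log2 scale. In treated marrow, 4 rose and 1 fell. There Fpr1 was 2.45-fold higher, C5ar1, Cxcr4 and Cxcr3 rose by smaller amounts, and Cx3cr1 was 3.28-fold lower. Fpr1 and C5ar1 rose in both tissues, and Cxcr4 rose in marrow and fell in lung. A receptor is counted as changed at an adjusted p under 0.05, from limma's moderated test on the log2 ratios with Benjamini-Hochberg adjustment over all 22127 genes. By the same rule 33.9% of all genes changed in lung, 19.9% higher and 14% lower, and 14.4% changed in marrow, 7.25% higher and 7.12% lower. The size of the log2 ratio had a median of 0.92 over the 9 receptors and 0.16 over all genes in lung, and 0.44 and 0.13 in marrow. Ratios are treated over mock, following the dyes that the labels name. The headings of the deposited matrices name the opposite direction, mock over treated, although their values follow Cy5 over Cy3.

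**Figure D1:**
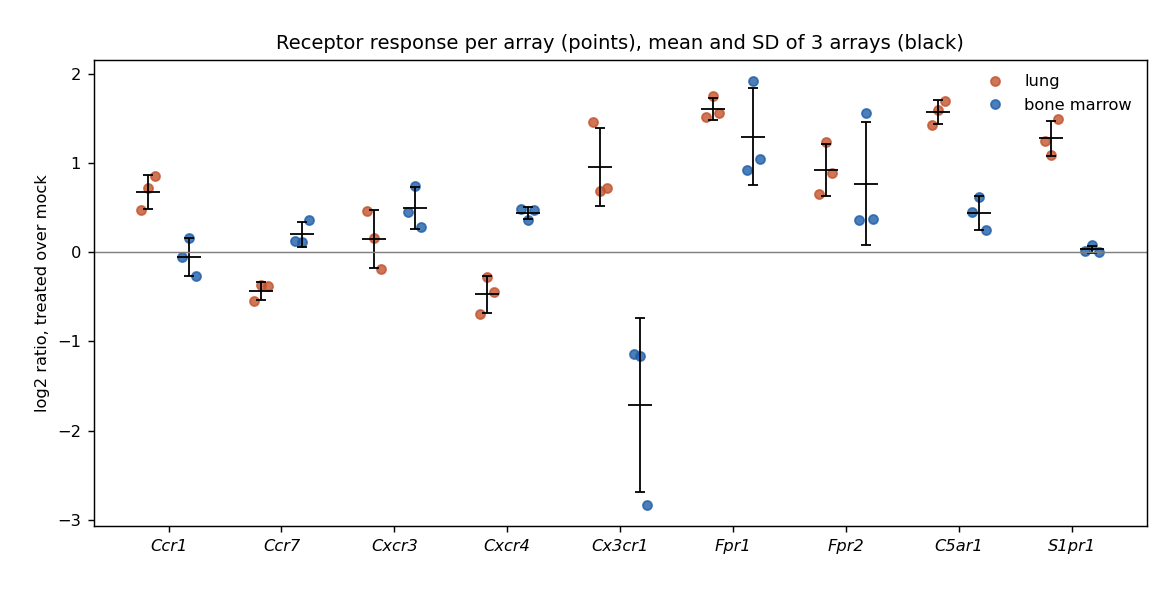
Log2 ratio of treated over mock for each receptor (y axis), with 1 point per array, lung left of bone marrow, and the mean and SD of 3 arrays in black. All 3 lung arrays lie above 0 for Ccr1, Cx3cr1, Fpr1, Fpr2, C5ar1 and S1pr1 and below 0 for Ccr7 and Cxcr4, while all 3 marrow arrays lie below 0 for Cx3cr1.

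The formyl peptide receptors lie side by side on chromosome 17 and are read outwards from each other, with 3384 bases between the promoter windows shown here. Compared with each other, their probes matched at no more than 20 of 60 bases in any ungapped alignment. No pair of the array's 6 formyl peptide receptor probes matched at more than 23. Only probes were aligned, so whether a probe also binds the transcript of another receptor was not tested. The sequences of the 2 probes are shown. Both are given 5′ to 3′ as the array's files hold them.
Fpr1 probe A_51_P312485, minus strand, chr17:18013609-18013668 of mm9: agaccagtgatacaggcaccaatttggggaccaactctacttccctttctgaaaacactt
Fpr2 probe A_51_P288138, plus strand, chr17:18030540-18030599 of mm9: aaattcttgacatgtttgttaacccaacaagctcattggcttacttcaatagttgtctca
The 250 bases before each transcription start follow, from RefSeq on GRCm38.p6, with every CG pair in capitals. A CG pair reads the same on both strands.
Fpr1 promoter, minus strand, chr17:17883940-17884189: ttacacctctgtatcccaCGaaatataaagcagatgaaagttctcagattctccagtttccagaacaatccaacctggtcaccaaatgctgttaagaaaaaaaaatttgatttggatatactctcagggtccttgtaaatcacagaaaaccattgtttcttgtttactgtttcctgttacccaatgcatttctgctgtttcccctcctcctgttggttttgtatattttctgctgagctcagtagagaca
Fpr2 promoter, plus strand, chr17:17887574-17887823: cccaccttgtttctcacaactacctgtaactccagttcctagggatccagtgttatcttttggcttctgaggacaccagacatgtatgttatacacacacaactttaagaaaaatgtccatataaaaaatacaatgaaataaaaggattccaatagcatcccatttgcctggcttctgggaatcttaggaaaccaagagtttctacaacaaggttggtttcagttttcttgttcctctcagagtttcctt
The Fpr1 window holds 1 CG pair and the Fpr2 window holds 0, where the median over 32851 RefSeq promoter windows of this length was 6, with quartiles of 2 and 16. Of all windows, 7.87% held none.

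Fpr1, a receptor for bacterial and mitochondrial formyl peptides, had normalised levels of 5323, 4657 and 4504 intensity units in treated lung, against 1864, 1388 and 1527 in mock lung. In treated marrow its level was 1020.1, 1391 and 939, against 539, 368 and 456 in mock marrow. The treated arrays lay above all mock arrays in both tissues, with no overlap. The log2 ratio was 1.51, 1.75 and 1.56 on the lung arrays, with a mean of 1.61 ± 0.12 (SD, n = 3, adjusted p = 0.00063), and 0.92, 1.92 and 1.04 on the marrow arrays, with a mean of 1.29 ± 0.55 (SD, n = 3, adjusted p = 0.0056). Marrow replicate 2 stood above the other 2 marrow arrays. The response differed between tissues by 0.31, which did not pass (adjusted p = 0.408). Without marrow replicate 2 that difference was 0.63 (adjusted p = 0.0335).

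Fpr2 recognises formyl peptides together with several inflammatory and resolving ligands such as annexin A1. Its level was 3746, 5563 and 3887 in treated lung, against 2390.4, 2367 and 2095 in mock lung, and 1316, 1676 and 1046 in treated marrow, against 1022, 567 and 808 in mock marrow. The groups did not overlap in either tissue, though in marrow the lowest treated array lay close to the highest mock array. Fpr2 rose by 0.65, 1.23 and 0.89 on the log2 scale in lung, a mean of 0.92 ± 0.29 (SD, n = 3, adjusted p = 0.0183). The marrow ratios were 0.36, 1.56 and 0.37, a mean of 0.77 ± 0.69 (SD, n = 3, adjusted p = 0.0634), again highest on marrow replicate 2. Without that array the marrow mean was 0.37. With the replicate number as a block, Fpr2 passed in marrow (adjusted p = 0.0247). The lung call ended with the scanner software's processed signals (adjusted p = 0.0555), without lung replicate 2 (adjusted p = 0.101) and without lung replicate 3 (adjusted p = 0.0556).

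C5ar1 encodes the G protein-coupled receptor for the complement fragment C5a. It measured 1538, 1443 and 1604 in treated lung, against 572, 478 and 494 in mock lung. In marrow it measured 225, 283 and 240.0 in treated cells, against 165, 184 and 202 in mock cells. Neither tissue showed overlap between treated and mock arrays. The lung log2 ratios of 1.43, 1.60 and 1.70 averaged 1.57 ± 0.14 (SD, n = 3, adjusted p = 6.28e-05), and the marrow ratios of 0.45, 0.62 and 0.25 averaged 0.44 ± 0.19 (SD, n = 3, adjusted p = 0.0191). The lung response exceeded the marrow response by 1.13 (adjusted p = 0.0023). That difference was 0.60 with processed signals (adjusted p = 0.181) and 0.62 with background taken from negative control spots (adjusted p = 0.191), where the marrow ratio was 1.05 in both. The marrow call of C5ar1 ended when marrow replicate 1 (adjusted p = 0.0717) or marrow replicate 2 (adjusted p = 0.109) was left out, and when the arrays were scaled (adjusted p = 0.0738).

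Markers of neutrophils and macrophages, in which Fpr1, Fpr2 and C5ar1 are known to be high, moved beside these receptors in lung. Of 9 neutrophil markers, 5 rose and 4 did not pass in lung, with a median log2 ratio of 1.45, and 0 of 9 passed in marrow by limma (1 passed at an unadjusted p under 0.05), with a median of -0.15. All 10 macrophage markers rose in lung, with a median of 2.18, and 0 of 10 passed in marrow by limma (1 passed at an unadjusted p under 0.05), with a median of 0.06. By the same rule 19.9% of all genes rose in lung, and 14.4% changed in marrow. In bulk RNA, more cells of a type and more RNA per cell cannot be told apart. The part of these markers in the lung result was not tested.

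**Figure D2:**
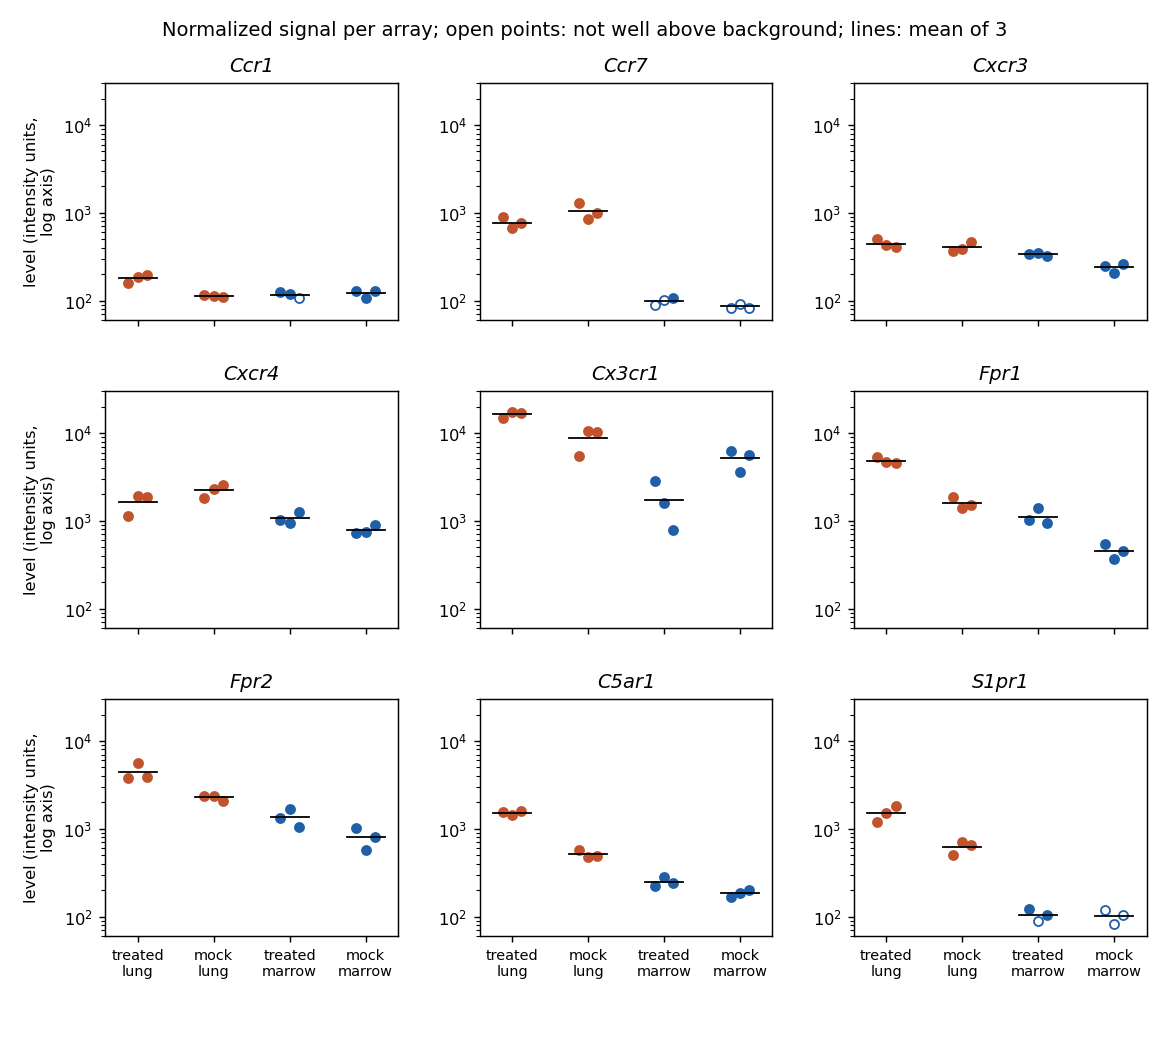
Normalised signal per array (y axis, intensity units, log scale) for each receptor in treated lung, mock lung, treated marrow and mock marrow, with the mean of 3 arrays as a line and open points where the probe was not well above background. Ccr7 and S1pr1 have open points on all 3 mock marrow arrays. The mean of treated lung lies highest for every receptor except Ccr7 and Cxcr4, though for Cxcr3 the treated and mock lung arrays overlap. Levels of different probes are not comparable between panels.

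S1pr1 encodes the receptor for sphingosine 1-phosphate that draws lymphocytes and progenitors into blood and lymph and that also lines blood vessels. Its level was 1207, 1518 and 1838 in treated lung, against 509, 711 and 655 in mock lung. All 3 treated lung arrays exceeded all 3 mock lung arrays. S1pr1 rose by 1.25, 1.09 and 1.49 on the log2 scale, a mean of 1.28 ± 0.20 (SD, n = 3, adjusted p = 9.03e-05). In marrow it read 121, 88.02 and 105 in treated cells, well above background on 2 of 3 arrays, against 119.8, 83.3 and 104 in mock cells, where it was not well above background on any array. The marrow ratio of 0.03 ± 0.04 did not pass (SD, n = 3, adjusted p = 0.819), and it was 0.46 with processed signals (adjusted p = 0.0203). The responses of the tissues differed by 1.24 (adjusted p = 0.00132), a value whose marrow side rests on mock signal not above background. Of 8 endothelial markers, 7 rose and 1 did not pass in lung, with a median log2 ratio of 0.95, while 1 of 8 rose in marrow, where Cdh5, Tek, Ramp2 and Emcn were not well above background in either channel. By the same rule 19.9% of all genes rose in lung and 7.25% rose in marrow. The part of endothelial RNA in the S1pr1 result was not tested.

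Cxcr4, the receptor for the marrow chemokine CXCL12, had the most CG pairs before its start among the 7 receptors with a RefSeq promoter window. Its 250 bases from RefSeq on GRCm38.p6 hold 19 CG pairs, more than 80.3% of all promoter windows, and are shown for contrast with the formyl peptide receptors, CG pairs again in capitals.
Cxcr4 promoter, minus strand, chr1:128592300-128592549: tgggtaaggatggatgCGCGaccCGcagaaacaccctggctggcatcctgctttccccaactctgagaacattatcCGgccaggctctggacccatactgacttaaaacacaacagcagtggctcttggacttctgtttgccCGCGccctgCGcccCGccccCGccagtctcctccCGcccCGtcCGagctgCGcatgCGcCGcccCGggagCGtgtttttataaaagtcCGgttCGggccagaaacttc
Cxcr4 levels were 1129, 1919 and 1881 in treated lung, against 1823, 2324 and 2561 in mock lung. The groups overlapped in level, since lung replicate 1 was low in both channels, but every lung array had less Cxcr4 in the treated channel. The log2 ratios of -0.69, -0.28 and -0.45 averaged -0.47 ± 0.21 (SD, n = 3, adjusted p = 0.00471). In marrow the levels were 1017, 951 and 1258 in treated cells, against 730, 741 and 903 in mock cells, without overlap. Cxcr4 rose there by 0.48, 0.36 and 0.48, a mean of 0.44 ± 0.07 (SD, n = 3, adjusted p = 0.0173). The tissue difference was -0.91 (adjusted p = 0.00428). The marrow call did not survive the loss of any 1 marrow array (adjusted p = 0.0713, 0.0671 and 0.0775 without replicates 1, 2 and 3).

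Ccr7 encodes the receptor for CCL19 and CCL21, which lymphocytes and mature dendritic cells follow to lymph nodes. It measured 893, 664 and 767 in treated lung, against 1306, 859 and 995 in mock lung. The 2 groups overlapped in level while each lung array had a lower treated than mock signal. Ccr7 fell by 0.43 ± 0.10 on the log2 scale in lung (SD, n = 3, adjusted p = 0.0039), with -0.55, -0.37 and -0.37 on the arrays. In marrow its level was 90.3, 100.4 and 106.9 in treated cells, above background on 1 of 3 arrays, against 82.9, 92.6 and 83.2 in mock cells, not well above background on any array. The marrow ratio of 0.20 ± 0.14 did not pass (SD, n = 3, adjusted p = 0.106). It passed with processed signals, at 1.34 (adjusted p = 0.0368), and with background from negative control spots, at 1.48 (adjusted p = 0.00295). The lung call ended under the same 2 settings (adjusted p = 0.296 and 0.08). The tissue difference was -0.63 (adjusted p = 0.00915), and it was -1.89 (adjusted p = 0.049) and -1.96 (adjusted p = 0.00687) under those settings. The marrow side of this difference rests on mock signal not above background.

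Lymphoid markers were measured beside Ccr7 and Cxcr4 in lung, where 19.9% of all genes rose and 14% fell. Of 7 B cell markers tested, 5 fell, 1 rose and 1 did not pass in lung, with a median log2 ratio of -1.16, and the summed level was 2275 to 2514 in treated lung and 3867 to 5993 in mock lung. Of 8 T cell markers, 2 rose, 2 fell and 4 did not pass, with summed levels of 3179 to 4155 and 3158 to 3665. Among 8 markers of NK cells, 3 passed with a fall and 5 missed the threshold, with summed levels of 2447 to 2722 and 3562 to 3987. Of 7 dendritic cell markers tested, 1 rose and 1 fell, with summed levels of 31074 to 34207 and 23176 to 25776. In marrow neither channel had the B cell marker Ms4a1 well above background. The part of lymphoid RNA in the lung values of Ccr7 and Cxcr4 was not tested.

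Cx3cr1, the fractalkine receptor, fell in marrow, and its lung ratio, which was above 0, did not pass. The 250 bases before its start are shown because it had the largest fall among the 9 in marrow. They hold 4 CG pairs, in capitals, and 37.8% of all promoter windows held fewer.
Cx3cr1 promoter, minus strand, chr9:120068297-120068546: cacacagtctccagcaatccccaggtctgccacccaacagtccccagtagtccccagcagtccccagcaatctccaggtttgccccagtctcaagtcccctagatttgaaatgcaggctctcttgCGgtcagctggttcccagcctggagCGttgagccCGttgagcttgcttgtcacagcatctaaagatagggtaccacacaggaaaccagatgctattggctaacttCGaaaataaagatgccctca
Its level was 14950.2, 17212 and 17097 in treated lung, against 5444, 10661 and 10361 in mock lung. In marrow it was 2807, 1599 and 787 in treated cells, against 6208, 3569 and 5616 in mock cells. Treated lung lay above mock lung and treated marrow below mock marrow on every array, without overlap. The marrow log2 ratios were -1.15, -1.16 and -2.84, a mean of -1.71 ± 0.97 (SD, n = 3, adjusted p = 0.0166), with marrow replicate 3 far below the other 2 arrays. The mean was -1.15 without that array and the gene still passed. The lung ratios were 1.46, 0.69 and 0.72, a mean of 0.96 ± 0.43 (SD, n = 3, adjusted p = 0.0548). The lung value passed without marrow replicate 3 (adjusted p = 0.00455), with each tissue fitted alone (adjusted p = 0.0211) and with the replicate block (adjusted p = 0.0246). The responses differed by 2.67 between tissues, a 6.37-fold difference (adjusted p = 0.0103). A further Cx3cr1 probe gave -1.41 ± 0.81 in marrow and 0.69 ± 0.37 in lung (SD, n = 3), the same directions.

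Monocyte markers were measured beside Cx3cr1. Over all genes 19.9% rose and 14% fell in lung, and 7.25% rose and 7.12% fell in marrow. Of 10 markers of nonclassical monocytes, the subset in which Cx3cr1 is high, 5 rose and 5 did not pass in lung, with a median log2 ratio of 0.26, and 0 of 10 passed in marrow by limma (2 passed at an unadjusted p under 0.05), with a median of -0.09. Their summed level was 81799 to 135587 in treated lung and 119167 to 129347 in mock lung, so the treated range spanned the mock range. In marrow the sum was 33088 to 43223 in treated and 38419 to 51647 in mock cells. Cd36, a scavenger receptor, rose by 1.47 ± 0.18 in lung, Fabp4, a fatty acid carrier, by 1.08 ± 0.50, Ace, the angiotensin-converting enzyme, by 0.52 ± 0.10 and Spn, which encodes CD43, by 0.42 ± 0.13 (SD of 3 arrays, adjusted p from 7.58e-05 to 0.00347). Of the 9 markers of M-MDSCs and classical monocytes, 2 rose and 4 fell in lung, and 1 rose and 2 fell in marrow. Csf1r, the receptor for the monocyte growth factor CSF1, rose by 0.76 ± 0.23 in lung and fell by 1.14 ± 0.29 in marrow (SD, n = 3, adjusted p = 0.00315 and 0.00298), the same signs as the Cx3cr1 ratios. Ly6c1 rose by 0.65 ± 0.16 in marrow (SD, n = 3, adjusted p = 0.033), the integrin gene Itgam rose by 0.64 ± 0.24 in lung and the clotting factor gene F13a1 fell by 0.49 ± 0.15 in lung (SD, n = 3, adjusted p = 0.00186 and 0.00534). The Ly6c1 marrow call ended without any 1 marrow array (adjusted p = 0.121, 0.163 and 0.0781 without replicates 1, 2 and 3), with processed signals (adjusted p = 0.0584), with scaled arrays (adjusted p = 0.0614) and with the mean of a gene's probes (adjusted p = 0.071). The Itgam lung call ended with the mean of its probes (adjusted p = 0.072). The part of these subsets in the Cx3cr1 values was not tested.

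Ccr1 encodes a receptor for inflammatory CC chemokines such as CCL3 and CCL5. Its level was 160.0, 185 and 198 in treated lung, against 115, 112 and 110.0 in mock lung, without overlap. Ccr1 rose by 0.47, 0.72 and 0.85 on the log2 scale, a mean of 0.68 ± 0.19 (SD, n = 3, adjusted p = 0.00215), and the mean was 1.44 with processed signals and 1.47 with background from negative control spots. In marrow the levels were 124, 119 and 106 in treated cells, above background on 2 of 3 arrays, against 129, 107.1 and 128 in mock cells. Treated and mock marrow overlapped, and the ratio of -0.06 ± 0.21 did not pass (SD, n = 3, adjusted p = 0.742). The tissue difference of 0.73 passed (adjusted p = 0.0157), but not without marrow replicate 1 (adjusted p = 0.0536) or with background from negative control spots (1.65, adjusted p = 0.0598).

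Cxcr3, a receptor of T cells and NK cells for the interferon-induced chemokines CXCL9 and CXCL10, read 341, 349 and 322 in treated marrow, against 249, 208 and 265 in mock marrow. These groups did not overlap. Cxcr3 rose by 0.45, 0.75 and 0.28 on the log2 scale in marrow, a mean of 0.49 ± 0.23 (SD, n = 3, adjusted p = 0.0465). The marrow mean was 0.85 with processed signals and 0.88 with background from negative control spots (adjusted p = 0.0229 and 0.0222). In lung the levels were 501, 428 and 411 in treated cells, against 363, 383 and 468 in mock cells, and the groups overlapped. The lung ratio of 0.15 ± 0.33 did not pass (SD, n = 3, adjusted p = 0.436), with 1 of 3 arrays below 0, and the difference between tissues was -0.35 (adjusted p = 0.233). The marrow call ended without any 1 marrow array (adjusted p = 0.119, 0.238 and 0.0801 without replicates 1, 2 and 3), without lung replicate 2 (adjusted p = 0.0812) and without the filter on dim probes (adjusted p = 0.0516). Of 8 T cell markers 0 passed in marrow by limma (2 passed at an unadjusted p under 0.05), and of 8 NK cell markers 1 rose there. By the same rule 14.4% of all genes changed in marrow, and 7.25% of all genes rose.

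The response to treatment differed between lung and marrow for 6 of the 9 receptors, where 15.2% of all genes differed, 9.78% with a higher and 5.44% with a lower response in lung. It was higher in lung, with the difference passing, for Ccr1, Cx3cr1, C5ar1 and S1pr1, and lower for Ccr7 and Cxcr4. The difference did not pass for Cxcr3, Fpr1 and Fpr2. Over all genes, the ratios of 2 arrays correlated at 0.59 to 0.85 within a tissue and at 0.16 to 0.36 between tissues.

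**Figure D3:**
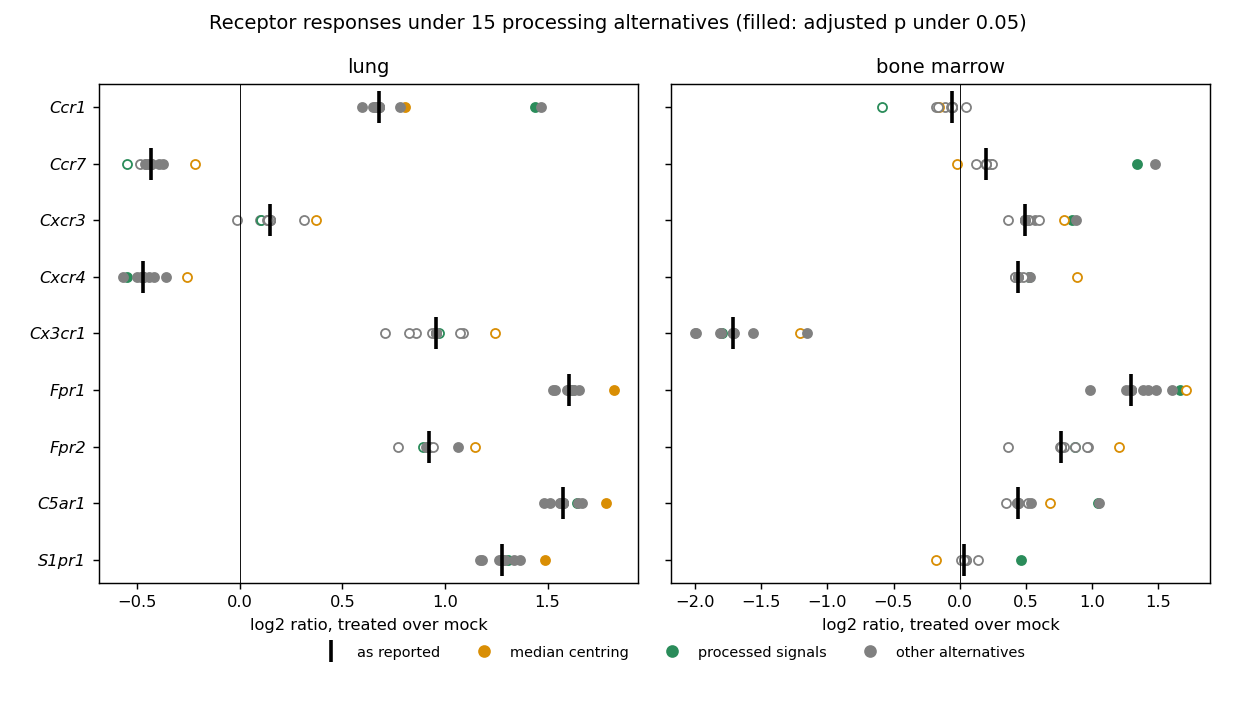
Log2 ratio of treated over mock (x axis) for each receptor in lung and in bone marrow under 15 ways of processing, with the reported value as a black line and filled points where the adjusted p is under 0.05. Fpr1, C5ar1, S1pr1 and Ccr1 stay filled throughout in lung, and with median centring no receptor is filled in marrow.

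The normalization bore on all marrow calls. With each array centred on its median in place of loess, which moved the median log2 ratio of all genes to 0.20 in marrow and 0.12 in lung, 0 of 9 receptors passed in marrow by limma (adjusted p = 0.277 for each of the 5 called otherwise). Their marrow ratios were then 1.71 for Fpr1, 0.89 for Cxcr4, 0.79 for Cxcr3, 0.69 for C5ar1 and -1.20 for Cx3cr1, so the first 4 were larger than as reported and Cx3cr1 was nearer to 0. At an unadjusted p under 0.05, 6 of 9 receptors and 3954 of all genes passed in marrow under that setting, and 0 genes after adjustment. In lung Fpr1, C5ar1, S1pr1 and Ccr1 passed in all 15 alternatives, with ratios from 1.53 to 1.82 for Fpr1, from 1.48 to 1.78 for C5ar1, from 1.17 to 1.49 for S1pr1 and from 0.59 to 1.47 for Ccr1. Under median centring Cxcr4, Ccr7 and Fpr2 did not pass in lung (adjusted p = 0.69, 0.529 and 0.161), nor did any of the 6 tissue differences. Those differences were 2.45 for Cx3cr1, 1.67 for S1pr1, 1.10 for C5ar1, 0.96 for Ccr1, -1.14 for Cxcr4 and -0.20 for Ccr7 under that setting.

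Levels were also compared between the tissues within each channel. In treated cells all 9 receptors were higher in lung than in marrow, where 61.7% of all genes differed and 30.5% were higher. In mock cells 7 of 9 were higher in lung and 0 lower, where 64.8% of all genes differed, 31.8% higher and 33% lower. S1pr1 averaged 1521 ± 316 in treated lung and 105 ± 16.3 in treated marrow (SD, n = 3), 14.5-fold higher (adjusted p = 1.62e-06), with 2 of 3 treated marrow arrays well above background. The log2 difference of 3.85 was 6.15 with processed signals, and in mock cells it was at least 6.11-fold higher in lung, since mock marrow was not well above background. Ccr7 averaged 775 ± 115 in treated lung and 99.2 ± 8.37 in treated marrow (SD, n = 3), where 1 of 3 treated marrow arrays was well above background. Its log2 difference was 2.96 (adjusted p = 1.2e-06), and 4.88 with processed signals. Ccr7 was at least 12.04-fold higher in mock lung than in mock marrow. The lower bounds set the mean of the bright group against the higher of the dim probe's own signal and the lowest signal above background on each array.

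The log2 difference between lung and marrow was 2.13 in treated and 1.82 in mock cells for Fpr1, 1.71 and 1.55 for Fpr2, and 2.62 and 1.49 for C5ar1 (adjusted p from 9.48e-07 to 0.000237). For Cx3cr1 it was 3.43 in treated cells (adjusted p = 0.000184) and 0.76 in mock cells (adjusted p = 0.0526). In mock cells the Cx3cr1 arrays of the tissues overlapped, and without lung replicate 1 the difference was 1.07 (adjusted p = 0.0023). For Cxcr4 it was 0.58 in treated cells (adjusted p = 0.0463) and 1.49 in mock cells (adjusted p = 5.25e-05), and in treated cells the tissues overlapped and the call ended in 7 of 10 alternatives. Cxcr3 differed by 0.40 in treated and 0.75 in mock cells (adjusted p = 0.00874 and 0.00119), and the value of treated cells missed the threshold with processed signals (adjusted p = 0.054). Ccr1 differed by 0.63 in treated cells (adjusted p = 0.00152) and by -0.10 in mock cells (adjusted p = 0.339).

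The order of the 4 group means was the same for Fpr1, Fpr2, C5ar1, Cxcr3 and S1pr1: treated lung highest, then mock lung, treated marrow and mock marrow. The marrow means of S1pr1 lay close together, at 105 in treated and 102 in mock cells, where mock signal was not well above background. Fpr1 averaged 4828 ± 435 in treated lung, 1593 ± 245 in mock lung, 1117 ± 241 in treated marrow and 454 ± 85.7 in mock marrow (SD, n = 3 each), and mock lung and treated marrow overlapped. Cx3cr1 averaged 16420 ± 1274 in treated lung, 8822 ± 2929 in mock lung, 1731 ± 1016 in treated marrow and 5131 ± 1385 in mock marrow (SD, n = 3 each), so treated marrow was lowest, and mock lung and mock marrow overlapped. Cxcr4 averaged 1643 ± 446 in treated lung, 2236 ± 377 in mock lung, 1076 ± 161 in treated marrow and 791 ± 96.9 in mock marrow (SD, n = 3 each), so mock lung was highest. The 2 Cxcr4 lung groups overlapped, as did treated lung and treated marrow. Tissue and slide cannot be told apart in any of these differences.

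Other chemoattractant receptors were measured for comparison: 28 of a list of 31 passed the filter, and Ccr4, Xcr1 and Ptgdr2 did not. In lung 10 of the 28 rose, 3 fell and 15 did not pass, with a median log2 ratio of 0.13, and in marrow 3 rose, 1 fell and 24 did not pass, with a median of 0.06. The median over all genes was 0.01 in lung and 0.02 in marrow, where 33.9% and 14.4% of all genes passed. The marrow count lay near that share. Ccr2, which guides classical monocytes out of the marrow, fell in both tissues, by 1.12 ± 0.46 in lung and by 0.84 ± 0.28 in marrow (SD, n = 3, adjusted p = 0.00227 and 0.0198).

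**Figure D4:**
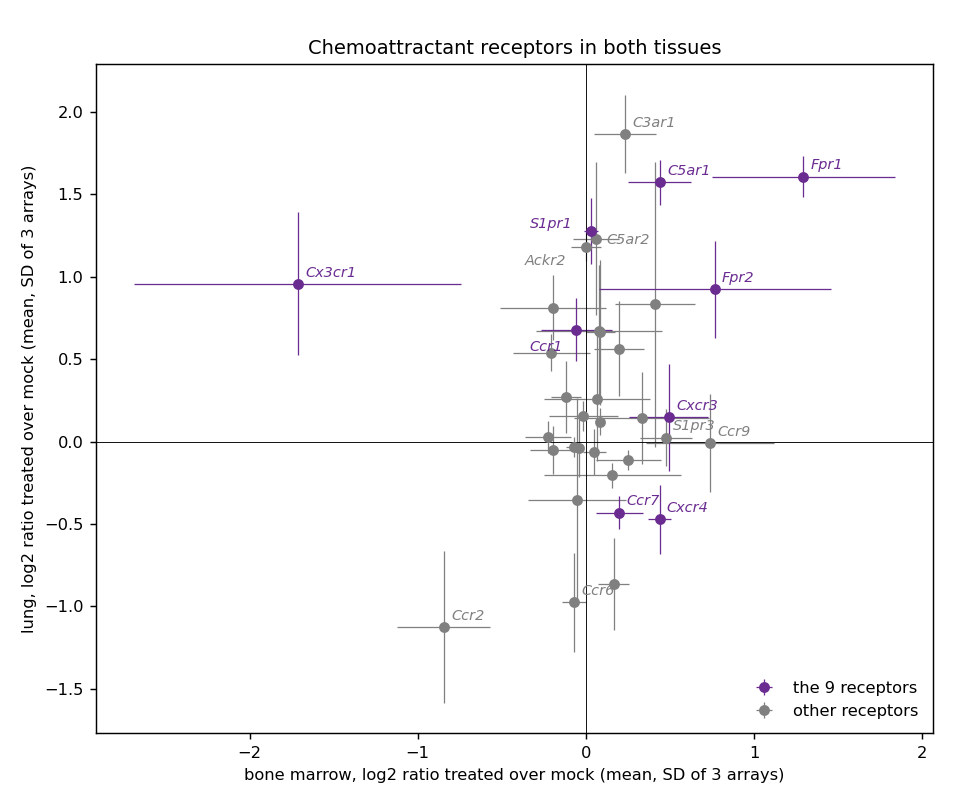
Mean log2 ratio of treated over mock in lung (y axis) against bone marrow (x axis), with SD of 3 arrays, for the 9 receptors and the other chemoattractant receptors reported here. Fpr1 lies high on both axes, Cx3cr1 lies high in lung and low in marrow, and Ccr2 lies low on both.

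The complement receptors rose together with C5ar1 in lung. C3ar1, the receptor for C3a, rose by 1.87 ± 0.24 and C5ar2, a C5a receptor that does not signal through G proteins, by 1.23 ± 0.46 (SD, n = 3, adjusted p = 6.36e-05 and 0.00108). Their marrow ratios were 0.23 ± 0.18 and 0.06 ± 0.14 (SD, n = 3, adjusted p = 0.164 and 0.822). Ackr2, which scavenges inflammatory chemokines, rose by 1.18 ± 0.09 in lung, and Ccr6, the receptor for CCL20, fell by 0.97 ± 0.30 there (SD, n = 3, adjusted p = 6.28e-05 and 0.000631). Neither Ackr2 nor Ccr6 was well above background on any marrow array. In marrow Ccr9, a homing receptor for thymus and gut, rose and was at least 1.67-fold higher in treated cells (adjusted p = 0.0223), its mock level not being well above background. S1pr3, a further S1P receptor, rose by 0.47 ± 0.15 in marrow (SD, n = 3, adjusted p = 0.0156). With processed signals Ccr9 read 3.29 and S1pr3 1.64 in marrow, Ccr6 read -1.55 in lung, and the calls of Ccr9 and S1pr3 ended without marrow replicate 2 (adjusted p = 0.123 and 0.0919) or 3 (adjusted p = 0.0999 and 0.0762). The Ccr9 call also ended with the replicate block (adjusted p = 0.0567). The Ccr2 marrow call ended without any 1 marrow array (adjusted p = 0.0863, 0.0521 and 0.0885) and when the arrays were scaled to 1 spread (adjusted p = 0.0521).

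Of 17 measured ligands of the 9 receptors, 7 rose, 3 fell and 7 did not pass in lung, with a median log2 ratio of 0.45, and 3 rose and 14 did not pass in marrow, with a median of 0.11. The share of all genes that passed was 33.9% in lung and 14.4% in marrow. Ccl5, a ligand of Ccr1, measured 2949, 2078 and 2653 in treated lung, against 5332, 4233 and 4867 in mock lung, and 401, 456 and 457 in treated marrow, against 285, 261 and 199.6 in mock marrow. Treated and mock arrays did not overlap in either tissue. Ccl5 fell by 0.92 ± 0.09 in lung and rose by 0.83 ± 0.35 in marrow (SD, n = 3, adjusted p = 0.00131 and 0.00709). Ccl7, which binds Ccr1 as well as Ccr2, rose by 3.29 ± 0.05 in lung (SD, n = 3, adjusted p = 3.2e-06). Cxcl11, a Cxcr3 ligand, rose by 0.95 ± 0.22 and Cx3cl1, which encodes fractalkine, by 0.87 ± 0.24 in lung (SD, n = 3, adjusted p = 0.00086 and 0.00089). In marrow Mif, a cytokine that also binds CXCR4, rose by 1.06 ± 0.37 and Cxcl10, a Cxcr3 ligand, by 0.85 ± 0.17 (SD, n = 3, adjusted p = 0.0123 and 0.0462). The Cxcl10 call ended without any 1 marrow array (adjusted p = 0.109, 0.176 and 0.176), without lung replicate 2 (adjusted p = 0.0729) and without the filter on dim probes (adjusted p = 0.053). With the mean of its probes Cxcl10 was 0.52 in marrow and did not pass (adjusted p = 0.124). Cxcl11 was 0.60 in lung with the mean of its probes and still passed (adjusted p = 0.00366). The Mif call ended without marrow replicate 1 or 3 (adjusted p = 0.0619 and 0.066), and Cx3cl1 did not pass with processed signals (adjusted p = 0.102).

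Among 6 genes that make, break down or export sphingosine 1-phosphate, 4 rose and 2 did not pass in lung, and 2 fell and 4 did not pass in marrow. The share of all genes that passed was 33.9% in lung and 14.4% in marrow. Sphk1, a kinase that makes it, rose by 1.06 ± 0.25 in lung, and the exporter genes Mfsd2b and Spns2 rose by 0.65 ± 0.41 and 0.31 ± 0.11 (SD of 3 arrays, adjusted p from 0.000266 to 0.0137). Sphk2, the other kinase gene, fell by 0.52 ± 0.11 in marrow (SD, n = 3, adjusted p = 0.00395). Sgpl1, which encodes the lyase that breaks it down, rose by 0.21 ± 0.11 in lung and fell by 0.34 ± 0.06 in marrow (SD, n = 3, adjusted p = 0.0418 and 0.0166). The Sgpl1 lung call ended in 12 of 15 alternatives and its marrow call without marrow replicate 2 or 3 (adjusted p = 0.0887 and 0.0734). The Spns2 call ended without lung replicate 3 (adjusted p = 0.0614), with processed signals (adjusted p = 0.144) and with background from negative control spots (adjusted p = 0.121). The Mfsd2b call ended without lung replicate 2 or 3 (adjusted p = 0.0787 and 0.0693) and when the arrays were scaled (adjusted p = 0.0592). With median centring neither Spns2 nor Mfsd2b passed in lung (adjusted p = 0.104 and 0.136).

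Of 22 genes for signalling and desensitisation of these receptors, 5 rose, 2 fell and 15 did not pass in lung, and 1 rose, 9 fell and 12 did not pass in marrow, with a median log2 ratio of -0.21 in marrow. Over all genes 19.9% rose and 14% fell in lung, and 7.25% rose and 7.12% fell in marrow, so the lung count lay near the share of all genes. Rgs1, which shortens chemokine receptor signalling by speeding the shutdown of G proteins, measured 17217, 18856 and 20891 in treated lung, against 5351, 5479 and 5976 in mock lung, and 258, 165 and 179 in treated marrow, against 464, 264 and 283 in mock marrow. The treated and mock groups did not overlap in either tissue, with treated cells higher in lung and lower in marrow. Rgs1 rose by 1.76 ± 0.06 in lung and fell by 0.73 ± 0.10 in marrow (SD, n = 3, adjusted p = 1.43e-05 and 0.00163). The beta-arrestin genes Arrb2 and Arrb1, whose products uncouple and internalise receptors, rose by 0.97 ± 0.09 and 0.59 ± 0.29 in lung, as did the G protein subunit gene Gnb1 by 0.34 ± 0.07 (SD of 3 arrays, adjusted p from 0.000878 to 0.00751). In marrow Gnb2 and Gnai2, genes of G protein subunits, fell by 0.68 ± 0.05 and 0.51 ± 0.15, and Prex1, an activator of the GTPase Rac, fell by 0.66 ± 0.14 (SD of 3 arrays, adjusted p from 0.00235 to 0.0103). With median centring the marrow ratio was 0.084 for Gnb2 and 0.19 for Gnai2, where the median of all genes was 0.20. The Gnai2 marrow call ended with scaled arrays (adjusted p = 0.0539) and the Gnb1 lung call with processed signals (adjusted p = 0.0513). The Prex1 call ended without marrow replicate 1 or 3 (adjusted p = 0.0542 and 0.0507).

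The genes whose 6 log2 ratios lay nearest to those of a receptor were found by Euclidean distance over the 6 arrays among 16495 named genes. For S1pr1 these were Ptprb at 0.12, Sh3pxd2b at 0.14 and Slc16a9 at 0.15. For C5ar1 they were Adamtsl4 at 0.29, Gdf15 at 0.31 and Lmna at 0.46. Near Cx3cr1 lay Csf1r at 1.45 and Selenop at 1.47, and both were below 0 in marrow and above 0 in lung. For Fpr1 the nearest were Adora3 at 0.79, Ccnd2 at 0.93 and Hal at 0.93, and for Fpr2 they were Cd33 at 0.75, Cd274 at 0.77 and Ceacam16 at 0.80. The nearest gene lay at 0.23 for Cxcr4, which was Srp19, followed by Ap1s3 and Ms4a4b. It lay at 0.15 for Ccr7, which was Gse1, followed by Snrpb2 and Hgh1, at 0.22 for Ccr1, which was Nrros, followed by Rcbtb2 and Ift43, and at 0.34 for Cxcr3, which was Stkld1, followed by Suox and Ero1b. The distance grows with the size of a gene's ratios, so it does not rank the receptors against each other.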

How the data were processed

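RNA of sorted M-MDSCs was measured on 6 dual-colour Agilent arrays, grouped by the tissue in the labels. The deposited scanner output, made with Agilent Feature Extraction 10.7.3.1 per the file headers, gives raw intensity values of each spot and its surroundings, processed intensities after the software's own background and dye correction, and log10 ratios of processed Cy5 over Cy3. Probe positions are on mm9. The deposited matrices hold log2 ratios that the authors made with limma, per the submitters' processing notes, with settings not given in the sources used here. They were compared with Cy5 over Cy3 ratios made from median spot signals, 1 of the alternatives below, with normexp and loess as here. The correlation was 0.9995 or more over 43173 spots, and the deposited array medians ran from -0.014 to 0.0096. So the deposited scale and centring match those ratios, and only the direction named in the headings conflicts.

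Mean spot signals and median backgrounds were corrected in limma 3.58.1 (R 4.3.3) by normexp with an offset of 50, then loess per array. Control spots had weight 0 in the loess and were dropped afterwards, as were spots marked as outliers. After correction the median of the 153 negative control spots in Cy5 was 240.3 on marrow replicate 1, 87.0 on lung replicate 2 and 13.3 to 16.0 on the other arrays. In Cy3 it was 52.7 on marrow replicate 1, 25.7 on lung replicate 2, 21.5 on marrow replicate 3 and 8.4 to 8.6 on the others. Probes well above background on at least 2 arrays of 1 tissue and channel were kept, 27726 of 39429, and the brightest probe stood for a gene. Names were updated through RefSeq for 26581 probes by accession, 2597 by symbol and 492 by synonym, and 9759 kept the name in the file. Log2 ratios of all arrays were fitted with 1 mean per tissue (4 residual and 3.49 prior degrees of freedom), so the spread of a gene is shared by both tissues. Levels are channel values after loess and Aquantile, which include the offset. Two-sided p values of limma's moderated test were adjusted by Benjamini-Hochberg over 22127 genes, and 0.05 was the threshold. A fold uses the mean log2 ratio.

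Alternatives were median signals, processed signals, background from negative control spots, median centring, scaling between arrays, no filter, the mean of a gene's probes, separate fits, the replicate number as a block, quantile normalization of channels and leaving out each array. The scripts were tested on simulated data. The receptors and gene lists were chosen with earlier results of these data known. Named are all receptors, up to 4 genes per pathway list and tissue with the smallest p among those that passed, other receptors past a 2-fold change that passed, and the 3 nearest genes per receptor; a few genes that these rules select are not reported here. Promoter windows were found for 7 of the 9 receptors.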

Additional observations from a re-analysis of the deposited data

Results flagged for a closer look

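The response to treatment, log2 of treated over mock, was tested for a difference between lung and bone marrow (limma, Benjamini-Hochberg over all genes), and each value below is lung minus marrow with an adjusted p under 0.05. Among the 9 receptors it was 2.67 for Cx3cr1, 1.24 for S1pr1, 1.13 for C5ar1, 0.73 for Ccr1, -0.63 for Ccr7 and -0.91 for Cxcr4 (adjusted p from 0.00132 to 0.0157). With median centring none of the 6 passed, at 2.45, 1.67, 1.10, 0.96, -0.20 and -1.14 in the same order.

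Among other receptors it was 1.63 for C3ar1, 1.18 for Ackr2, 1.17 for C5ar2, -0.45 for S1pr3 and -0.90 for Ccr6 (adjusted p from 0.000799 to 0.0488). In marrow neither channel had Ackr2 or Ccr6 well above background, so their differences rest on lung signal.

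Among ligands it was 3.43 for Ccl7, 0.89 for Cxcl11, 0.84 for Cx3cl1, -1.31 for Cxcl10 and -1.75 for Ccl5 (adjusted p from 3.17e-05 to 0.0339). Cx3cl1 was not well above background on any marrow array in either channel, so its difference rests on lung signal. Ccl5 had opposite signs on every array of the tissues. With the mean of its probes Cxcl10 was 0.52 in marrow and -0.0021 in lung, against 0.85 and -0.46 with its brightest probe. Among sphingosine 1-phosphate genes the difference was 1.13 for Sphk1, 0.55 for Sgpl1 and 0.40 for Sphk2 (adjusted p from 0.00277 to 0.0246).

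Among signalling genes the difference was 2.49 for Rgs1, 1.16 for Arrb2, 1.08 for Arrb1, 0.69 for Prex1 and 0.56 for Gnb2 (adjusted p from 6.14e-05 to 0.0234). Rgs1 was the largest of these and had opposite signs in the tissues on all 6 arrays. Among monocyte markers it was 1.90 for Csf1r, 1.57 for Cd36, 1.16 for Fabp4, 0.70 for Ace, 0.55 for Spn, -0.54 for F13a1 and -0.90 for Ly6c1 (adjusted p from 0.000831 to 0.0332).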

How the results depend on the processing

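Over the 9 receptors and all comparisons, 516 values of 576 kept their direction and side of the threshold, 42 no longer passed, 10 newly passed and 8 values without a call moved, with 0 called values reversed. With median centring the receptors that passed were 0 in marrow (5 as reported), 4 in lung (7) and 0 for the tissue difference (6), and over all genes 0 (3181 as reported), 963 (7510; 890 higher and 73 lower, against 4408 and 3102) and 33 (3367) passed, with 3954, 4065 and 2155 at an unadjusted p under 0.05. Its cause was not tested. In marrow 6352 genes passed with processed signals, 3357 of them higher, and 5459 with background from negative control spots, of which 3312 were higher and 2147 lower, against 1605 and 1576 as reported. With these backgrounds the tissue difference split into 2262 higher and 1978 lower (processed) and 1784 and 1762 (negative control spots), against 2164 and 1203. Leaving out 1 array gave 2 to 5 receptors and 980 to 4069 genes in marrow, and 1496 to 2820 genes for the difference; without lung replicate 2, 1909 genes passed in marrow.

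Reversed were Ackr2 in marrow at -1.09 with processed signals, and with median centring in marrow Sgpl1 at 0.14, Gnb2 at 0.084, Gnai2 at 0.19 and Arrb1 at 0.031, each below the 0.20 median of all genes. Same-numbered deviations of the tissues correlated at 0.00, 0.12 and 0.05, and the best other number gave 0.04, -0.03 and 0.04. Such small correlations from 3 arrays per tissue cannot show whether replicate numbers pair the arrays across tissues. With the replicate number as a block 6 receptors passed in marrow, 8 in lung and 6 for the difference, and 2449, 7021 and 2861 genes. In mock and treated cells the block left 7 and 9 receptors higher in lung. Signal limits Ccr7 and S1pr1 in marrow, where mock arrays were not well above background: levels of mock lung against mock marrow are lower bounds, and the tissue differences of response rest on that dim signal.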
